A study of Rattus norvegicus with 14 samples.

Results

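Transcripts of 8 genes that liver uses for its vessels, its collagen-forming cells and the growth factors that pass between its cells were followed in rat liver across 3 diets. The genes are Vegfa, Hgf, Fgf2, Tgfb1, Nrp1, Egfl7, Col1a1 and Col3a1. Every probe set (a group of short probes that reports 1 transcript) whose platform annotation gave 1 of these symbols was taken, which made 19 of the 8740 probe sets other than controls, for 8 of 4736 named genes. The study compared rats on a magnesium-deficient diet (4 arrays, numbered 11 to 14), a magnesium-supplemented diet (5 arrays, numbered 1 to 5) and a standard diet (5 arrays, numbered 6 to 10). RNA came from the left lateral lobe of the liver, taken at necropsy. The labels give no strain, sex, age, magnesium content or duration of feeding, and no agent other than the diet. Nor do they tie the arrays to different animals, and the p-values below therefore measure spread between samples that may be technical. In whole liver RNA, fewer cells of a type and less RNA per cell cannot be told apart.

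Most liver RNA comes from hepatocytes, while these genes are best known from the cells around them. Vascular endothelial growth factor A, made by hepatocytes among others, acts on the endothelium of the sinusoids, and neuropilin-1 (Nrp1) is a co-receptor that holds it there. Egfl7 is a secreted factor of endothelial cells. Hepatocyte growth factor (Hgf) comes mainly from stellate and endothelial cells and acts on hepatocytes through the receptor Met, and transforming growth factor beta 1 (Tgfb1) drives stellate cells to lay down the fibrillar collagens whose chains Col1a1 and Col3a1 encode. Fgf2 is a heparin-binding growth factor for endothelium and fibroblasts.

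Array signals were quantile normalised, which gives every array the same distribution, and are given in the units of the deposited table. Signals under a floor of 3.93 units were set to it. The test took in probe sets with a mean above 3.83 on the log2 scale (14.3 units) over the 14 arrays. This kept 5133 probe sets, among them 15 of the 19 described here, and each of the 8 genes kept at least 1. Median signals as deposited lay between 18.0 and 34.4 units per array. All 7 hepatocyte markers on the array were above the floor on all 14 arrays, with Alb, the albumin gene, the brightest at 7530 to 9258 units and the transcription factor gene Hnf4a the dimmest at 155 to 314. Of the endothelial markers Icam1, which other cells also express, was the brightest at 257 to 547 units; Lyve1, of sinusoidal endothelium, lay between 49.4 and 115 and Pecam1 between 8.16 and 34.1, while Sox17 was at the floor on all 14. Of the stellate and fibroblast markers Sparc was the brightest at 1167 to 2655 units; Vim lay between 42.5 and 79.0, Des was at the floor on 7 of 14 arrays and Postn on 13. A sign of RNA quality differed between the diets. The log2 ratio of the 3' to the 5' control probe set of Gapdh, which is higher in degraded or incompletely copied RNA, was 1.84 ± 0.65 (SD, n = 4) on the deficient, 0.71 ± 0.49 (SD, n = 5) on the supplemented and 1.64 ± 0.61 (SD, n = 5) on the standard diet. Supplemented array 5 stood apart with the lowest ratio, -0.12, and the lowest mean rank correlation with the other arrays, 0.913 where the rest lay between 0.940 and 0.951. The same ratio for beta-actin did not set it low: it was 1.29 there, where the rest of the diet had 0.77 to 0.97. Standard array 10 and deficient array 13 had the highest Gapdh ratios, 2.65 and 2.68.

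No probe set of the 8 genes was called by limma, the linear model fitted across all 5133 probe sets, at a Benjamini-Hochberg adjusted p under 0.05. For deficient against standard 0 of 5133 were called in all (0%), with 156 (3.04%) at an unadjusted p under 0.05, and 2 of the 15 were among these, both lower, where 1.32% of all were higher and 1.71% lower. Between the supplemented and the standard diet 0 of 5133 (0%) were called, 456 (8.88%) had an unadjusted p under 0.05 and 3 of the 15 did, all lower, where 4.15% of all were higher and 4.73% lower. Deficient against supplemented gave 1 call of 5133 (0.0195%), which was none of the 15, and 669 (13%) at an unadjusted p under 0.05, with 6 of the 15, of which 4 were higher and 2 lower, where 6.86% of all were higher and 6.18% lower. An F-test for any difference among the 3 diets also called 1 probe set (0.0195%) and 0 of the 15, while 4 of the 15 and 462 of all (9%) had an unadjusted p under 0.05. The tested probe sets of Hgf and Tgfb1 had supplemented means under the level of the filter and were kept through the other diets. Both are among the 6 for deficient against supplemented. Hgf is also among the 3 for supplemented against standard and the 4 of the F-test. These counts are therefore no result about the 15. The differences described below are therefore measured sizes, none of which passed the test across the array. Leaving out a single array moved 35 of the 45 differences (15 probe sets in 3 comparisons) by over 1.5 times or turned their sign. The deficient and the supplemented diet share the standard arrays as their comparison, so the differences from it are not independent of each other.

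**Figure D1:**
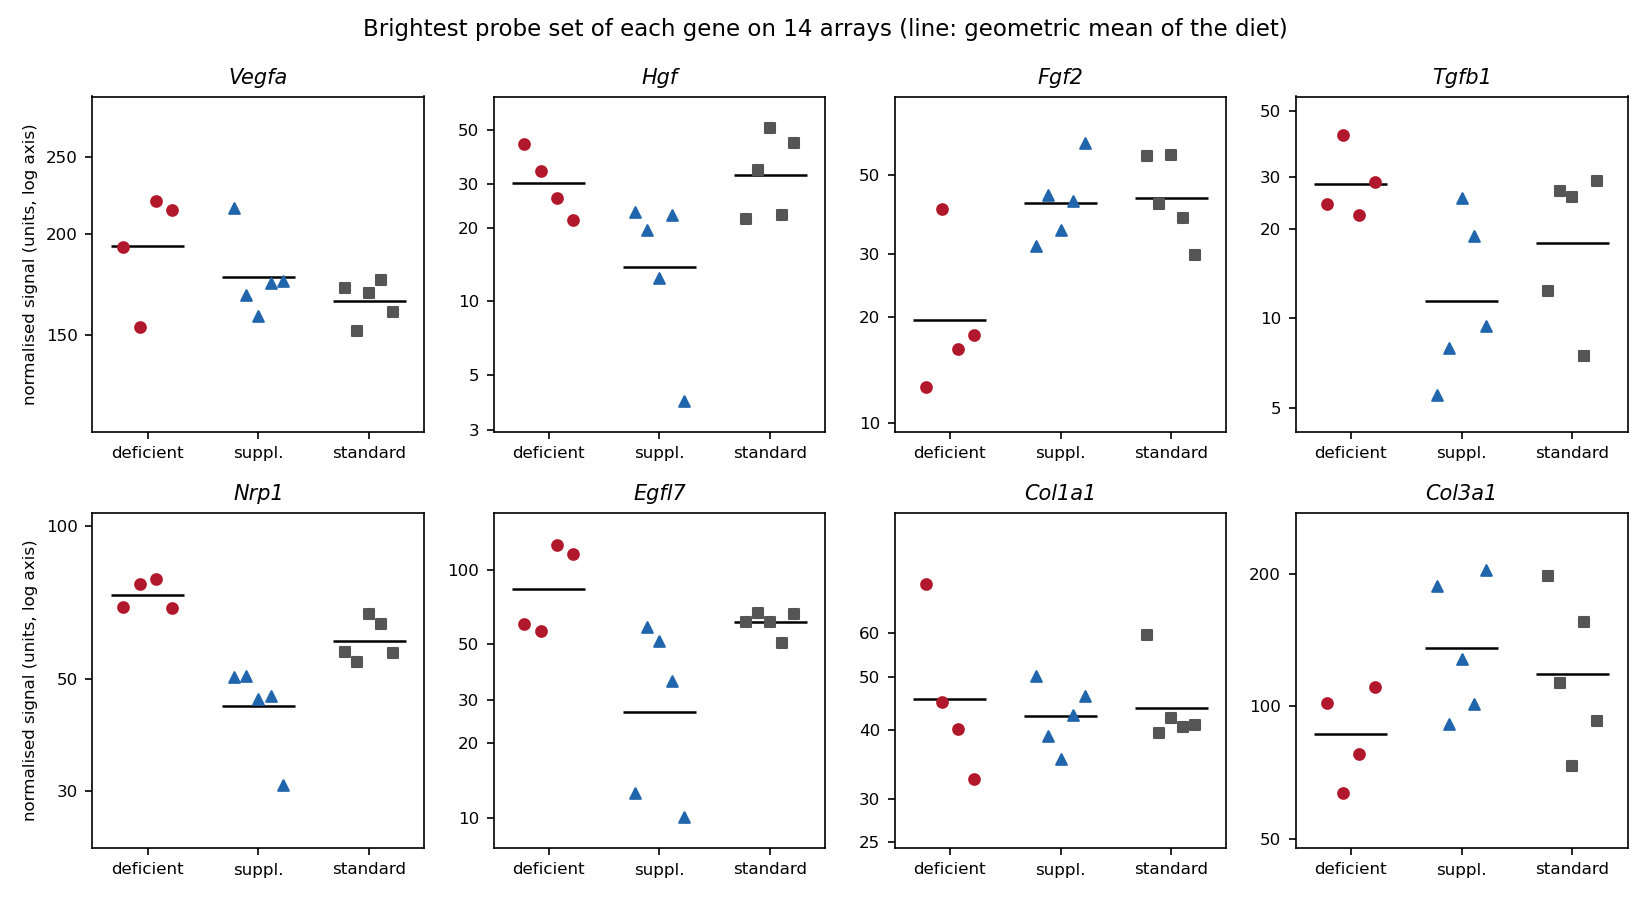
Normalised signal (units, log axis) of the brightest probe set of each of the 8 genes on 14 arrays, with 4 points on the deficient, 5 on the supplemented and 5 on the standard diet; each point is 1 array and each line the geometric mean of the diet. The diets of Nrp1 do not overlap, 3 of 4 deficient arrays of Fgf2 lie at or below 17.7 units, and supplemented array 5 is at the floor for Hgf.

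Sequence upstream of Nrp1, Fgf2, Egfl7 and Hgf is shown because these 4 genes had the smallest p-values of the 8 in the F-test. Nrp1, Egfl7 and Hgf varied together over the 14 arrays, with Pearson's r of 0.76 between Nrp1 and Egfl7, 0.78 between Nrp1 and Hgf and 0.59 between Egfl7 and Hgf, whereas Fgf2 and Nrp1 had r = -0.55. These coefficients are descriptions over arrays that share diets and RNA quality. RefSeq promoters of the GRCr8 build, 250 bases before to 50 bases after a gene's start, were held for 6 of the 8 genes. They stand on the plus strand at chr19:73256307-73256606 for Nrp1, chr3:29805381-29805680 for the first of 2 starts of Egfl7 and chr2:122164204-122164503 for Fgf2, and on the minus strand at chr4:19700418-19700717 for Hgf. Capitals mark a match on either strand to GGGCGG (the GC box), TATAAA (the TATA box), ACGTG (the core of hypoxia response elements) or GGAAGT (a site of ETS factors). A stretch CACGTG would match ACGTG on both strands.
Nrp1: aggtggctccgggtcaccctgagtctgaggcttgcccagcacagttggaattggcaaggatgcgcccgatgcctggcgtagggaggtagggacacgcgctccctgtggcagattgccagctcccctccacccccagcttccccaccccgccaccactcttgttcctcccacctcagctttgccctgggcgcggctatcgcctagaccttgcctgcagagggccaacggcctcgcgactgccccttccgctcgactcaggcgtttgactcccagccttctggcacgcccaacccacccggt
Egfl7: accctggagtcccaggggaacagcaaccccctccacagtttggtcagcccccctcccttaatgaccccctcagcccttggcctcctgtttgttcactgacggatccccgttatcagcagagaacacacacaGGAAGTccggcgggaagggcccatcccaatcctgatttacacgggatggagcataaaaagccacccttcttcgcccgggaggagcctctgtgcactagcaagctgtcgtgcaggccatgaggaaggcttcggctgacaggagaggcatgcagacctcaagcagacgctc
Hgf: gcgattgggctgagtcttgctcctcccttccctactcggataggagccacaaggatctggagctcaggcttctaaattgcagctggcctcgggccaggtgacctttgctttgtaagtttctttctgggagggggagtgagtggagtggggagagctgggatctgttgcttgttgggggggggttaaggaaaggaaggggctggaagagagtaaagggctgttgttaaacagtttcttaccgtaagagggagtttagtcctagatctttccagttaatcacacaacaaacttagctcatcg
Fgf2: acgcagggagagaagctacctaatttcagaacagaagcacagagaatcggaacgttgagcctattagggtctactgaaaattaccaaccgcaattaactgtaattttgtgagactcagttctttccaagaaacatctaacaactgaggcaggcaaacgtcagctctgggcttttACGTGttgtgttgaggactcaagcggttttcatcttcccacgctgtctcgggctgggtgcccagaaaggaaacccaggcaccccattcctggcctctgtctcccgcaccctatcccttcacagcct
Fgf2 held 1 match to ACGTG and Egfl7 1 match to GGAAGT, and the other letters searched are not in these 4 windows. Among all 33469 rat promoter windows of the same length, 19.3% held ACGTG, 22.6% GGAAGT, 33.1% GGGCGG and 14.2% TATAAA on either strand.

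Nrp1 had 69.3, 76.9, 78.7 and 68.9 units on deficient arrays 11 to 14 and 50.5, 50.6, 45.6, 46.3 and 31.0 units on supplemented arrays 1 to 5, against 56.5, 54.1, 67.3, 64.1 and 56.2 units on standard arrays 6 to 10. Every deficient array lay above every standard array, and every standard array above every supplemented one. Nrp1 was the 1 probe set of 5133 (0.0195%) whose 3 diets stood in this order without overlap, and 0 stood in the opposite order. On the log2 scale the difference was 0.73 ± 0.17 (SE), 1.66-fold higher, for deficient against supplemented, with the 13th smallest p of all probe sets (limma unadjusted p = 0.000642, adjusted 0.218). It was 0.30 ± 0.17 for deficient against standard (unadjusted p = 0.0953, adjusted 0.999) and -0.43 ± 0.16 for supplemented against standard (unadjusted p = 0.0175, adjusted 0.492). After quantile normalisation Nrp1 was also the 1 of the 15 tested probe sets whose groups did not overlap in each comparison. Of all probe sets this held for 4.95% for deficient against supplemented (3.08% higher, 1.87% lower), 1.44% for deficient against standard (0.682% higher, 0.76% lower) and 1.81% for supplemented against standard (0.896% higher, 0.916% lower). The separation rested on the scaling of the arrays. With values as deposited the deficient arrays (64.3 to 77.7 units) stayed clear of the supplemented ones (42.5 to 53.1), but the standard arrays (51.4 to 65.3) overlapped both, and Egfl7 too had deficient arrays (58.4 to 119 units) clear of the supplemented ones (11.8 to 57.6). With arrays centred on their medians the deficient arrays (65.2 to 93.2 units) overlapped the standard ones (54.0 to 69.4), which stayed clear of the supplemented ones (29.9 to 50.8). Under these scalings 0 of 5128 and 0 of 5125 probe sets had 3 ordered diets. The shares of all probe sets without overlap in a single comparison are not given for these scalings. The separations of Nrp1 and Egfl7 under them therefore have no background beside them.

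Egfl7 was read by a pair of probe sets, of which the brighter had 60.5, 56.8, 126 and 115 units on deficient arrays 11 to 14 and 12.6, 58.6, 51.5, 35.8 and 10.1 units on supplemented arrays 1 to 5, against 61.6, 67.2, 61.9, 50.9 and 66.5 units on standard arrays 6 to 10. The standard arrays were close together, deficient arrays 13 and 14 were the highest of all, and supplemented arrays 1 and 5 were the lowest, under the level of the filter on dim probe sets. Its difference was 1.65 ± 0.47 (SE) on the log2 scale, 3.14-fold higher, for deficient against supplemented (limma unadjusted p = 0.00306, adjusted 0.254). Supplemented against standard gave -1.20 ± 0.44 (unadjusted p = 0.0161, adjusted 0.492), and deficient against standard 0.45 ± 0.47, less than its SE (adjusted p = 0.999) and 0.26 without deficient array 13. The other probe set, made from the same source sequence, stayed between 3.93 and 5.93 units on all 14 arrays and was not tested.

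Endothelial markers other than these genes give a setting for both. Of 34 listed markers 17 had a probe set and 12 were tested, and 0 of the 12 had an unadjusted p under 0.05 in any of the 3 comparisons. Over all probe sets 3.04% did for deficient against standard, 8.88% for supplemented against standard and 13% for deficient against supplemented. With 12 genes a count of 0 does not set the markers apart from these shares. The summed signal of the 12 markers ranged from 943 to 1279 units on the deficient, 1055 to 1285 on the supplemented and 979 to 1164 on the standard diet, so the diets overlapped. Icam1, at 257 to 547 units, and Fcgr2b, at 176 to 351, weighed most in this sum, while Pecam1 had 8.16 to 34.1. Of the 12, 7 were higher and 5 lower for supplemented against standard. For deficient against supplemented 5 were higher and 7 lower. The median difference of the 12 was -0.04 on the log2 scale for deficient against supplemented, where Nrp1 was at 0.73 and Egfl7 at 1.65. Nrp1 and Egfl7 were among the described genes with the smallest p-values in the F-test, while the 12 were not picked by p. Setting them side by side is therefore only a description. Lyve1 was at -0.38 ± 0.22 (SE) for supplemented against standard, where 7 of the 12 were higher. Of 28 listed Vegf and semaphorin pathway genes 6 were tested: the receptor genes Kdr and Flt1, which are also among the 12 endothelial markers, and Hif1a, Arnt, Vhl and Egln3, which act in the response to low oxygen. No semaphorin and no Vegf ligand other than Vegfa was tested, and 0 of the 6 had an unadjusted p under 0.05 in any comparison. At the shares above, a count of 0 among so few is no result about these genes.

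The Gapdh ratio differed between the diets. With it as a covariate, Nrp1, Egfl7 and Hgf differed less between the supplemented and each other diet. Deficient minus supplemented also shrank for Fgf2, Tgfb1 and the brighter Col3a1 probe set, as given further on. With this ratio as a covariate the deficient minus supplemented difference of Nrp1 was 0.57 ± 0.22 (SE; limma unadjusted p = 0.0223, adjusted 1), that of Egfl7 was 1.00 and that of Hgf 0.22. The supplemented minus standard differences were then -0.29 for Nrp1, -0.66 for Egfl7 and -0.50 for Hgf. Without supplemented array 5, standard array 10 and deficient array 13, Nrp1 was at 0.57, Egfl7 at 1.11 and Hgf at 0.75 for deficient against supplemented. The part of RNA quality in these differences was not tested further.

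**Figure D2:**
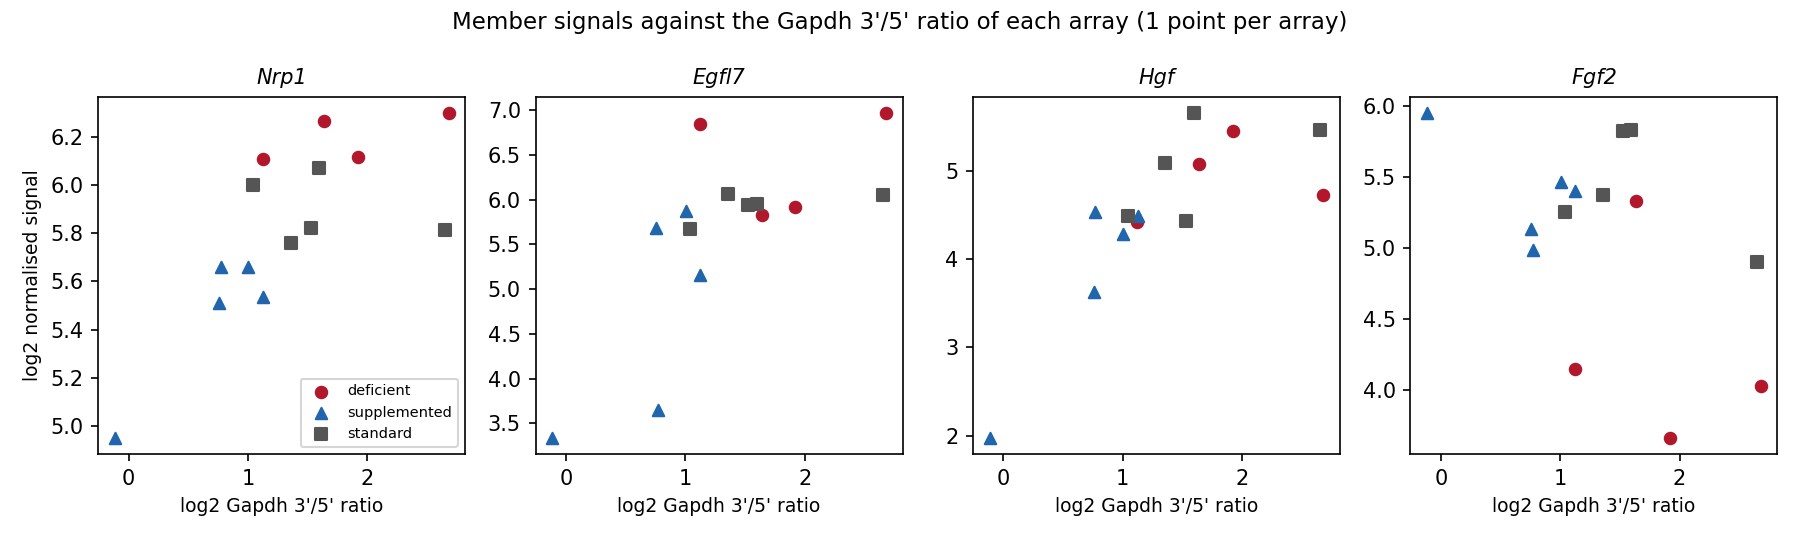
Log2 normalised signal of Nrp1, Egfl7, Hgf and Fgf2 (vertical axes) against the log2 Gapdh 3'/5' ratio of the same array (horizontal axes), 1 point per array, 14 arrays coloured by diet. Supplemented array 5, with a ratio of -0.12, is the lowest point for Nrp1, Egfl7 and Hgf and the highest for Fgf2. In these normalised values every deficient array of Nrp1 lies above all other arrays, whatever their ratio, and this order rests on the scaling.

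Fgf2 had 12.6, 40.1, 16.3 and 17.7 units on deficient arrays 11 to 14 and 31.7, 44.1, 35.1, 42.2 and 61.8 units on supplemented arrays 1 to 5, against 56.6, 41.5, 56.9, 38.0 and 29.9 units on standard arrays 6 to 10. Of the deficient arrays, 11, 13 and 14 were below every other array, while array 12 lay within the range of both other diets. The log2 difference was -1.15 ± 0.32 (SE), 2.21-fold lower, for deficient against standard, the 6th smallest p of 5133 (limma unadjusted p = 0.00274, adjusted 0.999). For deficient against supplemented it was -1.10 ± 0.32, 2.14-fold lower (unadjusted p = 0.00375, adjusted 0.259), and for supplemented against standard -0.05 ± 0.30 (adjusted p = 0.974). Without deficient array 12 the first difference was -1.49, and without deficient array 11 it was -0.94. With the Gapdh ratio as a covariate it was -1.07, and the deficient minus supplemented difference was -0.69. The dimmer probe set of Fgf2 was at the floor on 11 of 14 arrays and was not tested.

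Hgf was read by 3 probe sets, and 1 of them was tested. It had 43.8, 33.8, 26.5 and 21.4 units on deficient arrays 11 to 14 and 23.2, 19.5, 12.4, 22.5 and 3.93 units on supplemented arrays 1 to 5, against 21.6, 34.2, 50.6, 22.5 and 44.3 units on standard arrays 6 to 10. Supplemented arrays 3 and 5 were the lowest, array 5 being at the floor, and the other 3 lay between 19.5 and 23.2 units, where the lowest deficient array had 21.4 and the lowest standard array 21.6. Arrays 3 and 5 were under the level of the filter, as was the mean of the supplemented diet, 3.78 on the log2 scale. Hgf therefore entered the test through its deficient and standard arrays, which limits the p-values that involve the supplemented diet. Supplemented against standard gave -1.25 ± 0.44 (SE), 2.37-fold lower (limma unadjusted p = 0.0133, adjusted 0.492), and -0.79 without supplemented array 5. Deficient against supplemented gave 1.14 ± 0.47 (unadjusted p = 0.0291, adjusted 0.339), and 0.68 without that array. Deficient against standard was at -0.11 ± 0.47 (adjusted p = 0.999). Of the remaining probe sets 1 was at the floor on all 14 arrays. The other lay between 3.93 and 13.9 units, under the level of the filter, and its highest array was supplemented array 5. Fitted without the filter, this dim probe set gave 0.33 ± 0.33 for supplemented against standard and -0.46 ± 0.35 for deficient against supplemented. Both are opposite in sign to the differences of the tested probe set.

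Met encodes the receptor through which Hgf acts on hepatocytes. It is not 1 of the 8 genes and is named because it had the smallest p among the 7 tested genes of the Hgf pathway. Met had 14.4, 7.80, 8.42 and 17.1 units on deficient arrays 11 to 14 and 28.0, 27.2, 27.5, 23.7 and 26.2 units on supplemented arrays 1 to 5, against 14.6, 15.5, 6.58, 16.7 and 11.4 units on standard arrays 6 to 10. Every supplemented array lay above every other array, and supplemented array 5, lowest for Hgf, was among the rest of its diet. Of all probe sets 0.896% had every supplemented array above every standard one, and 1.87% above every deficient one. Met was picked by its p, so this separation is only a description. For Met, 2 of 4 deficient and 2 of 5 standard arrays were under the level of the filter. So were the means of both diets, 3.50 ± 0.56 and 3.62 ± 0.55 on the log2 scale (SD), where the supplemented diet had 4.73 ± 0.10. Met therefore entered the test through its supplemented arrays, and its differences, 1.10 ± 0.30 (SE) for supplemented against standard and -1.23 ± 0.32 for deficient against supplemented, are given without a test. With the Gapdh ratio as a covariate these were 0.82 and -0.88, and without the 3 arrays that stood apart 1.08 and -1.09. Plg, whose product plasmin splits matrix and clotting proteins, came next, at 1.04 ± 0.43 for supplemented against standard (adjusted p = 0.510) and -1.24 ± 0.45 for deficient against supplemented (adjusted p = 0.312). Mst1, a relative of Hgf, was at 0.32 ± 0.14 for deficient against supplemented. Of the 7 tested genes of this pathway 0 passed in either direction in any comparison; 2, Met and Plg, were higher and 5 lower for supplemented against standard, with a median of -0.05, and 5 were higher and 2 lower for deficient against supplemented, with a median of 0.24.

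**Figure D3:**
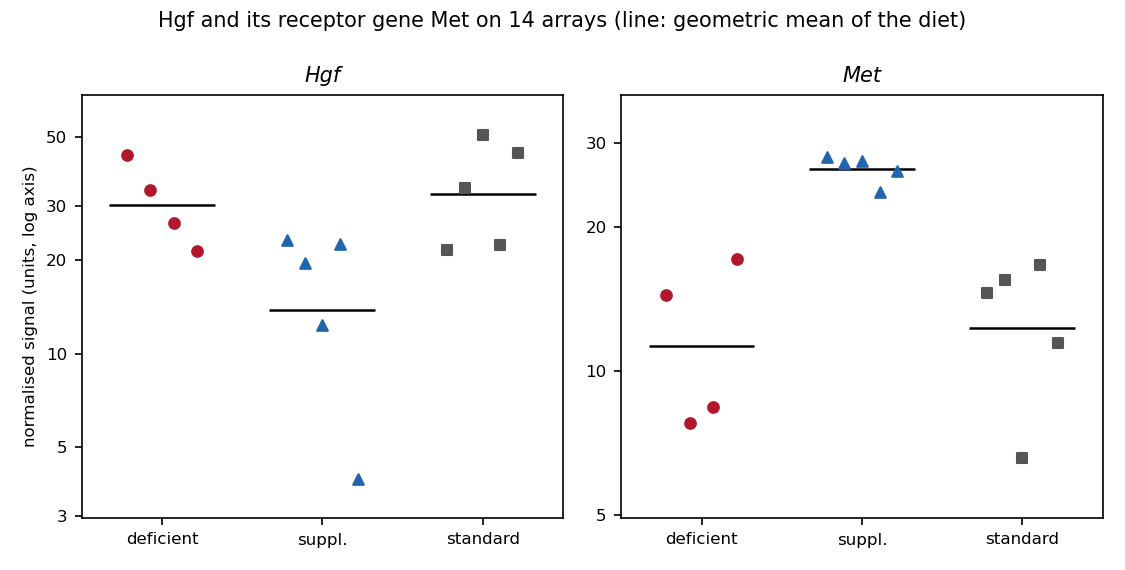
Normalised signal (units, log axis) of Hgf (left) and of its receptor gene Met (right) on 14 arrays by diet; each point is 1 array and each line the geometric mean of the diet. The 5 supplemented arrays lie between 3.93 and 23.2 units for Hgf and between 23.7 and 28.0 units for Met, where all other arrays of Met lie at or below 17.1.

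Tgfb1 had 24.2, 41.4, 22.3 and 28.8 units on deficient arrays 11 to 14 and 5.53, 7.93, 25.4, 19.0 and 9.38 units on supplemented arrays 1 to 5, against 12.3, 26.8, 25.6, 7.49 and 28.9 units on standard arrays 6 to 10. The deficient arrays were the most even, and both other diets held dim arrays beside arrays within the deficient range. Of these, 3 of 5 supplemented and 2 of 5 standard arrays were under the level of the filter. The mean of the supplemented diet, 3.52 on the log2 scale, was also under that level, so Tgfb1 entered the test through the other diets. As for Hgf, this limits the p-values that involve the supplemented diet, and these differences are only a description. Deficient against supplemented gave 1.31 ± 0.49 (SE), 2.47-fold higher (limma unadjusted p = 0.0171, adjusted 0.321). The difference from the standard diet was 0.66 ± 0.49 on the deficient and -0.64 ± 0.46 on the supplemented diet (adjusted p = 0.999 and 0.685). Without standard array 9 the deficient minus standard difference was 0.35, and without supplemented array 1 the supplemented minus standard difference was -0.38. With the Gapdh ratio as a covariate the deficient minus supplemented difference was 0.92. Other genes of the Tgf-beta pathway had 19 tested of 41 listed, with 0 passing in either direction. For deficient against supplemented 11 were higher and 8 lower, and 2 of the 19 had an unadjusted p under 0.05, where 13% of all probe sets did: the receptor gene Acvr1 at -0.80 ± 0.32 and Smad1, which carries the signal of related receptors to the nucleus, at 0.56 ± 0.24.

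Vegfa was read by 4 probe sets, all tested, which did not give 1 picture. The brightest had 193, 153, 220 and 214 units on deficient arrays 11 to 14 and 216, 168, 158, 174 and 175 units on supplemented arrays 1 to 5, against 171, 152, 169, 176 and 160 units on standard arrays 6 to 10. The diets overlapped, and the difference from the standard diet was 0.22 ± 0.16 (SE) on the deficient and 0.10 ± 0.15 on the supplemented diet (limma adjusted p = 0.999 and 0.862), the second being 0.03 without supplemented array 1. Its SD within diets, 0.17 on the log2 scale, was among the smallest 3.49% of all probe sets, where the median was 0.39. M32167_at, 1 of the other 3, had 21.2, 35.6, 62.6 and 81.2 units on deficient arrays 11 to 14 and 80.0, 67.7, 68.6, 76.6 and 71.1 units on supplemented arrays 1 to 5, against 104, 58.9, 73.9, 52.1 and 108 units on standard arrays 6 to 10. Deficient arrays 11 and 12 were lower than all others, and the deficient diet was at -0.78 ± 0.33 against the standard (unadjusted p = 0.0337, adjusted 0.999) and at -0.72 ± 0.33 against the supplemented diet (unadjusted p = 0.0487, adjusted 0.383). Without deficient array 11 these were -0.43 and -0.36. The same 2 deficient arrays were low in L20913_s_at, at 11.2 and 7.44 units where deficient arrays 13 and 14 had 46.0 and 56.1 units, and supplemented array 5 was at the floor there. Its difference from the standard diet was -0.49 ± 0.70 on the deficient and -0.39 ± 0.66 on the supplemented diet. In M32167_g_at, made from the same source sequence as M32167_at, the difference from the standard diet was 0.15 ± 0.21 on the deficient and 0.29 ± 0.20 on the supplemented diet, or 0.04 without deficient array 14 and 0.18 without supplemented array 5. The mean over all 4 probe sets turned the deficient minus standard difference to -0.22.

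The collagens were described by 4 probe sets of Col1a1 and 2 of Col3a1, all tested, and 0 of the 6 had an unadjusted p under 0.05 in any comparison. Over all probe sets 3.04% did for deficient against standard, 8.88% for supplemented against standard and 13% for deficient against supplemented. The brightest probe set of Col1a1 had 73.6, 45.0, 40.2 and 32.5 units on deficient arrays 11 to 14 and 50.1, 39.0, 35.5, 42.7 and 46.1 units on supplemented arrays 1 to 5, against 59.7, 39.5, 42.0, 40.5 and 40.8 units on standard arrays 6 to 10. Deficient array 11 was the highest in it and, at 131 units, in M27207mRNA_s_at, where every other array lay at or below 56.2. The differences of the brightest probe set were 0.06 ± 0.23 (SE) for deficient against standard, -0.05 ± 0.21 for supplemented against standard and 0.11 ± 0.23 for deficient against supplemented. For M27207mRNA_s_at they were 0.53 ± 0.42, -0.30 ± 0.39 and 0.83 ± 0.42 in the same order, and 0.11 and 0.40 for the 2 that involve the deficient diet without deficient array 11. The supplemented minus standard value was -0.03 without supplemented array 5, and the deficient minus supplemented value was 0.31 with the Gapdh ratio as a covariate. The brighter probe set of Col3a1 had 102, 63.7, 78.2 and 111 units on deficient arrays 11 to 14 and 188, 91.4, 128, 101 and 204 units on supplemented arrays 1 to 5, against 197, 113, 73.4, 155 and 92.8 units on standard arrays 6 to 10. The diets overlapped, although none of the 4 deficient arrays passed 111 units. Its differences were -0.46 ± 0.31 for deficient against standard (limma adjusted p = 0.999), 0.19 ± 0.30 for supplemented against standard (adjusted p = 0.870) and -0.65 ± 0.31 for deficient against supplemented (unadjusted p = 0.0578, adjusted 0.403). Without standard array 6 the first of these was -0.27, and without standard array 8 the second was 0.016. With the Gapdh ratio as a covariate the third was -0.13. The other probe set of Col3a1 was at -0.26 ± 0.27, 0.01 ± 0.26 and -0.27 ± 0.27 for deficient against standard, supplemented against standard and deficient against supplemented. Without deficient array 13 the first and the third were -0.06 and -0.07.

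**Figure D4:**
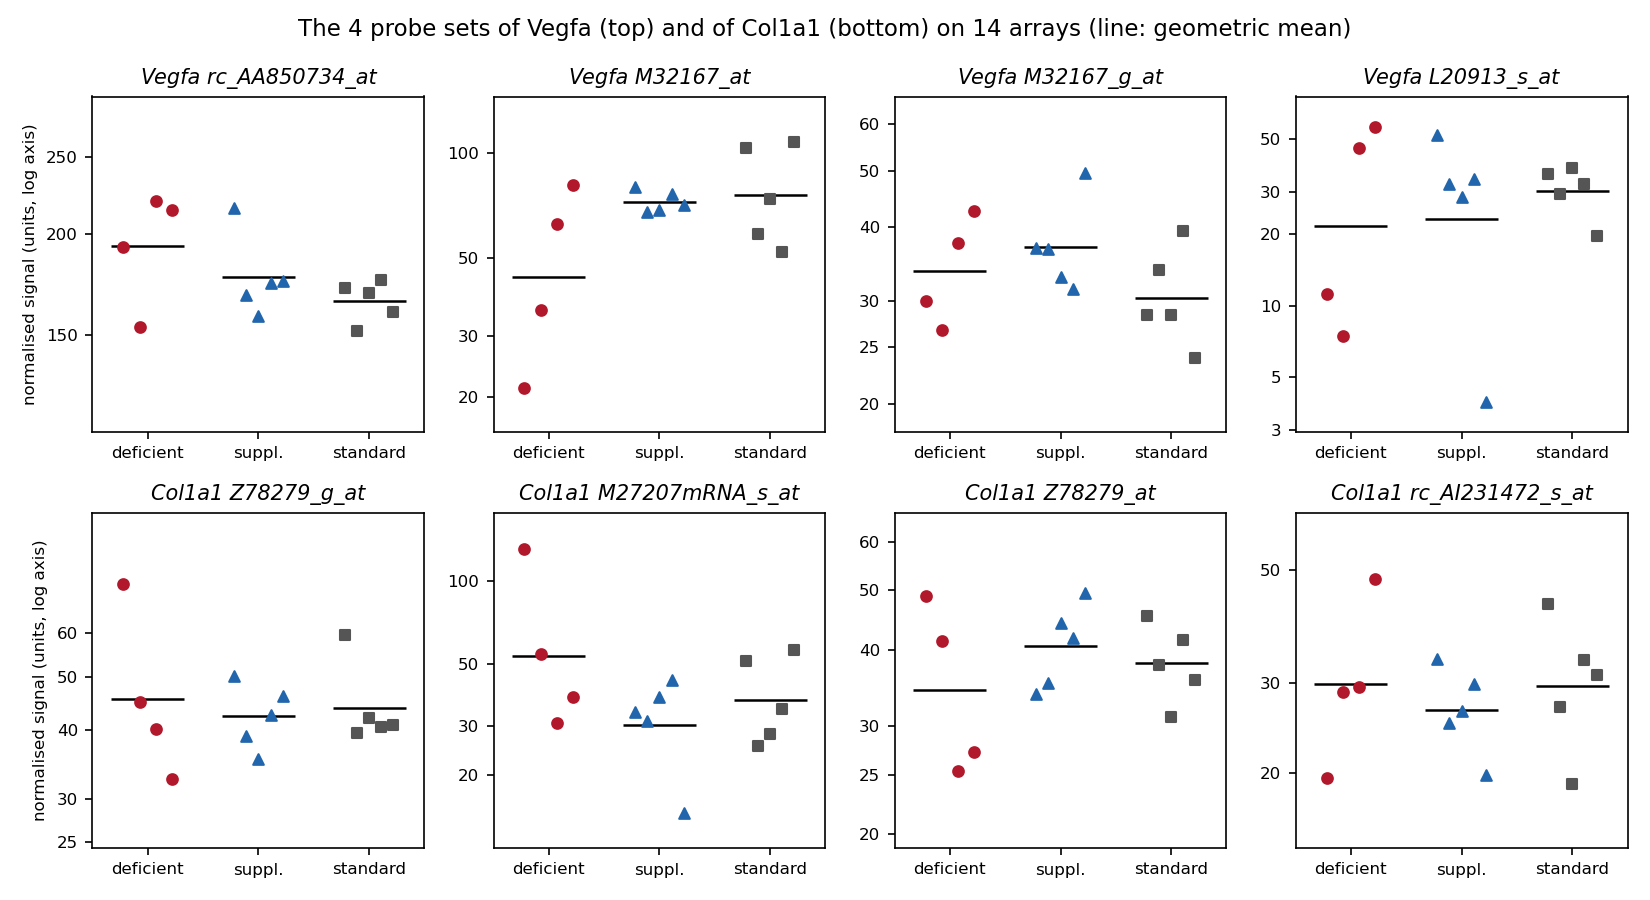
Normalised signal (units, log axis) of the 4 probe sets of Vegfa (top) and the 4 of Col1a1 (bottom) on 14 arrays by diet; each point is 1 array and each line the geometric mean of the diet. Deficient arrays 11 and 12 are low in M32167_at and L20913_s_at of Vegfa, where in its brightest probe set array 12 is the lowest deficient array and array 11 is not low, and deficient array 11 is high in M27207mRNA_s_at of Col1a1.

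Other genes of matrix and of the cells around hepatocytes were read from lists. As background to their counts, 1731 of the 3073 named genes tested were higher and 1342 lower for deficient against supplemented. For supplemented against standard 1385 were higher and 1688 lower. Of 44 listed collagen and matrix genes 20 were tested, with 0 passing in either direction and a median difference of 0.01 for deficient against standard, -0.04 for supplemented against standard and -0.03 for deficient against supplemented. Timp3, an inhibitor of matrix proteases, was the 1 with an unadjusted p under 0.05, at -0.65 ± 0.25 (SE) for deficient against supplemented (limma adjusted p = 0.332). In that comparison 13% of all probe sets had an unadjusted p under 0.05. Stellate and fibroblast markers had 12 tested of 25 listed, again with 0 passing; 10 were higher and 2 lower for deficient against supplemented, with a median of 0.15. For supplemented against standard the receptor gene Pdgfra was at -0.62 ± 0.23 and Reln, which encodes reelin, at -0.47 ± 0.19, both below an unadjusted p of 0.05. Of all probe sets 8.88% were below it in that comparison, 4.15% higher and 4.73% lower. For deficient against supplemented, where 13% were, Pdgfra was at 0.56 ± 0.24 and Sparc, a matrix protein gene, at 0.41 ± 0.19. Counts this small do not set the 12 markers apart from these shares. The summed signal of the 12 ranged from 2809 to 3933 units on the deficient, 2112 to 3030 on the supplemented and 2698 to 3345 on the standard diet. In the Fgf pathway 7 of 22 listed genes were tested and 0 passed, with 2 higher and 5 lower for supplemented against standard and 5 higher and 2 lower for deficient against supplemented. Its member with the smallest p was Sdc4, a heparan sulfate carrier, at -0.69 ± 0.26 for supplemented against standard and 0.77 ± 0.28 for deficient against supplemented. Kupffer cell and macrophage markers had 7 tested of 15 listed and 0 passing, with 6 higher and 1 lower for supplemented against standard (median 0.27) and 2 higher and 5 lower for deficient against supplemented (median -0.18). The lectin gene Clec4f was at 0.37 ± 0.15 and -0.37 ± 0.16 in these comparisons, while Aif1 was at -0.40 ± 0.38 and 0.69 ± 0.40. Of 6 bile duct markers 1, Epcam, was tested and did not pass. Of 8 hepatocyte markers 7 were tested and 0 passed, with 4 higher and 3 lower for supplemented against standard and a median of 0.00053; the fibrinogen gene Fgb was at 0.35 ± 0.14 and Alb at -0.05 ± 0.07.

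**Figure D5:**
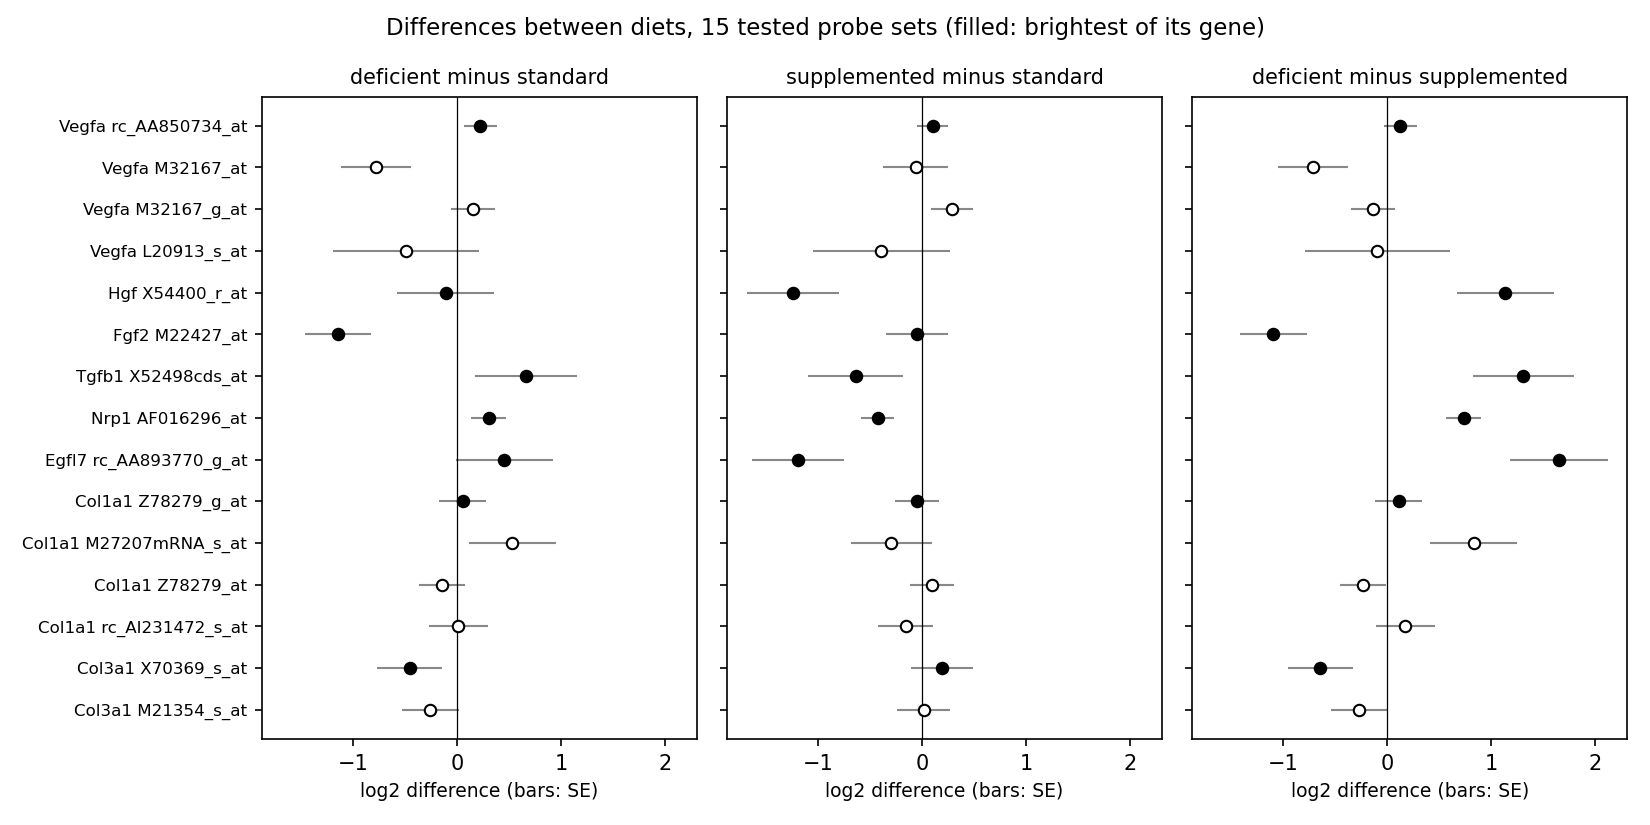
Log2 difference (horizontal axes, with SE bars from limma) of the 15 tested probe sets in the 3 comparisons of diets; filled points are the brightest probe set of a gene, open points its others. For deficient against supplemented Egfl7 is at 1.65, Tgfb1 at 1.31, Hgf at 1.14 and Fgf2 at -1.10, and none of the points passed the test across 5133 probe sets.

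Taking the brightest probe set of each gene, 5 of the 8 were higher and 3 lower for deficient against standard, with a median of 0.14 on the log2 scale where all 3073 named genes tested had 0.01. For supplemented against standard 2 were higher and 6 lower, with a median of -0.24 against -0.03 over all, and for deficient against supplemented 6 were higher and 2 lower, with a median of 0.43 against 0.05. Of all named genes 1623 were higher and 1450 lower, 1385 higher and 1688 lower, and 1731 higher and 1342 lower, in the same order. The 8 genes were chosen with earlier results of these data known, so these counts and medians are only a description. Spread within diets also differed among the genes: the SD was 0.20 for Nrp1, the 7.31st percentile of all probe sets, and 0.77 to 0.78 for Hgf, Tgfb1 and Egfl7, between the 88.6th and the 89.3rd percentile. Between genes, Tgfb1 went with Egfl7 (Pearson's r = 0.62, the third highest after Hgf with Nrp1 and Nrp1 with Egfl7), and the lowest r was that of Tgfb1 with Col3a1 (-0.70).

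The genes whose pattern over the 14 arrays was most like each of the 8, by Pearson's r among 3065 other named genes, were as follows. Atosb (r = 0.91) and Mtarc2 (0.88), a mitochondrial reductase gene, were closest to Nrp1, and Ddb2 (0.86), of DNA repair, and Orai1 (0.86), a calcium channel gene, to Egfl7. For Hgf they were the phosphatase gene Ptp4a2 (0.93) and Mbl1 (0.92), a mannose-binding lectin of plasma. Fgf2 was most like Grm4 (0.92), a glutamate receptor gene, and the desaturase gene Scd2 (0.87). Tgfb1 was most like the phospholipase gene Plcg1 (0.89) and Loxl1 (0.81), which cross-links elastic fibres. Vegfa went with Uqcr11 (0.77), of respiratory complex III, and Nrbp1 (0.71). Col1a1 was closest to the olfactory receptor gene Or1f32 (0.88) and Fbln5 (0.79), of elastic fibres, and Col3a1 to the phosphatase gene Ptpra (0.92) and the tropomyosin gene Tpm4 (0.87). These are the highest of many coefficients over arrays that share diet and RNA quality, and are given as a description.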

How the data were processed

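Rat liver RNA was measured on 14 Affymetrix arrays. Per the labels, targets were made from about 5 µg of total RNA by the maker's standard procedures. The authors deposited 1 linear intensity value for each probe set and array. The software behind it is not given in the sources used here, and without detection calls a dim signal cannot be told from background. In the deposited table every array had a mean of 150.3 units after trimming 2% at each end. Array medians still differed by 1.91 times, over a limit of 1.5, so signals were quantile normalised on the log2 scale without the 59 control probe sets, floored at the pooled 20th percentile, and kept above the pooled 40th percentile. A signal at the floor is known only to lie at or under it. The number of arrays limits the precision. The 3 diets, taken from the sample titles, were fitted in 1 model with limma 3.58.1 in R 4.3.3 (lmFit, eBayes with trend), with p-values two-sided and adjusted over 5133 probe sets. No pair of arrays was identical, and no value column was left unused.

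Genes were named through the platform annotation: 7006 probe sets had 1 symbol, 308 several and 1426 none. The brightest probe set stood for a gene. Other genes were named by rule: in each of 10 lists at most the 2 with the smallest p in a comparison, if under 0.05 unadjusted, and for each of the 8 genes the 2 most alike by Pearson's r. The bile duct gene Epcam, the 6 tested Vegf pathway genes, the marker genes given by their signal range, Mst1, Aif1 and the alternatives for Met are outside this rule and were chosen after values were seen. The genes and lists were chosen with earlier results of these data known. The fit was tested on simulated data.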

Additional observations from a re-analysis of the deposited data

Results flagged for a closer look

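Within each diet, the highest and lowest array of each tested probe set were compared with the rest by Dixon's ratio, at a level that chance passes in about 5% of groups. Of 45 groups 3 passed. Supplemented array 5 lay below the rest of its diet in Nrp1, at 31.0 units with the next array at 45.6, and in the Vegfa probe set L20913_s_at, at the floor of 3.93 units with the next at 28.6. These are quantile normalised units. As deposited, Nrp1 had 42.5 units on that array with the next at 44.9, so its gap depended on the scaling. Without supplemented array 5 the deficient minus supplemented difference of Nrp1 was 0.61. Standard array 6 lay above the rest of its diet in the brightest Col1a1 probe set, at 59.7 units with the next at 42.0.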

How the results depend on the processing

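The 45 log2 differences (15 probe sets in 3 comparisons) were recomputed under other scalings, floors, filters, covariates and sets of arrays. Of 1044 such values 982 kept their sign and 62 turned it, and 0 passed an adjusted p of 0.05. The cause of the turned values was not tested. Values are log2 differences, D for deficient, Su for supplemented and S for standard. With values as deposited the turned ones were Vegfa M32167_at 0.059 and Fgf2 0.067 (Su minus S), Col1a1 Z78279_g_at -0.016 (D minus S), 0.081 (Su minus S) and -0.097 (D minus Su), and rc_AI231472_s_at -0.013, 0.0081 and -0.021 in the same order. With arrays centred on their medians, Su minus S turned for the brightest Vegfa probe set (-0.0037) and Col3a1 M21354_s_at (-0.0083). With the Gapdh ratio as a covariate it turned for Vegfa M32167_at (0.11) and L20913_s_at (0.11), Col1a1 M27207mRNA_s_at (0.13) and Z78279_at (-0.059), and Col3a1 X70369_s_at (-0.24) and M21354_s_at (-0.14), and D minus Su turned for Vegfa M32167_g_at (0.21). Without the 3 arrays that stood apart Su minus S turned for Vegfa M32167_at (0.070) and L20913_s_at (0.089), Col1a1 M27207mRNA_s_at (0.12) and Z78279_at (-0.00061) and Col3a1 X70369_s_at (-0.047), and D minus S for Hgf (0.065). Array weights turned Vegfa L20913_s_at (Su minus S, 0.050) and Col1a1 rc_AI231472_s_at (D minus S, -0.040). The beta-actin ratio as a covariate, like the alternatives for Met, was chosen after seeing the data; it turned Vegfa M32167_g_at (0.0087) and L20913_s_at (0.36) and Col3a1 M21354_s_at (0.13) in D minus Su, Col3a1 X70369_s_at (-0.0074) and M21354_s_at (-0.24) in Su minus S, and Met in D minus S (0.017). The mean of its probe sets gave Vegfa -0.22 (D minus S), -0.018 (Su minus S) and -0.21 (D minus Su). Leaving out 1 array at a time turned these, given as lowest and highest value: Vegfa L20913_s_at -0.95 to 0.021 (D minus S), -0.69 to 0.24 (Su minus S) and -0.73 to 0.41 (D minus Su), Vegfa M32167_at -0.20 to 0.062 (Su minus S), Hgf -0.29 to 0.057 (D minus S), Fgf2 -0.19 to 0.051 (Su minus S), Col1a1 Z78279_g_at -0.18 to 0.22, -0.11 to 0.058 and -0.12 to 0.27 in the order of Vegfa L20913_s_at, Z78279_at -0.32 to 0.0018 (D minus S), rc_AI231472_s_at -0.21 to 0.22 (D minus S) and -0.057 to 0.38 (D minus Su), Col3a1 M21354_s_at -0.12 to 0.20 (Su minus S) and Met -0.35 to 0.053 (D minus S). Over all probe sets the single call of D minus Su and of the F-test became 0 as deposited, with either covariate and without the 3 arrays, and 2 with no filter; D minus Su also gave 0 with only those diets fitted. D minus S gave 1 call with no filter and Su minus S 1 with array weights. Leaving out 1 array gave 0 to 4 calls for D minus Su (4 without deficient array 14, 3 without supplemented array 2, 0 without supplemented 1, 3 or 4, standard 8 or deficient 11, 12 or 13), 0 to 3 for the F-test (3 without supplemented array 2, 2 without deficient array 14) and 0 to 2 for Su minus S (2 without supplemented array 2, 1 without standard 9 or deficient 13 or 14). No paired analysis was possible because the diets share no array numbers.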

Other observations

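Probe sets of 1 gene followed each other loosely over the 14 arrays. The 2 Vegfa probe sets made from the same source sequence, M32167_at and M32167_g_at, had Pearson's r = 0.05, and M32167_at and the brightest Vegfa probe set had r = -0.00012. Among the Vegfa pairs the highest r was 0.47, between M32167_g_at and the brightest. For Col1a1 the 6 pairs ran from -0.32 to 0.56, and the 2 probe sets of Col3a1 had r = 0.23.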
